A study of Mus musculus with 6 samples.

Results

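The genes described here are 35 transcripts of the amino acid response and of cytosolic tRNA charging in pulmonary group 2 innate lymphoid cells (ILC2s), of 22554 genes in the deposited count table. They were taken by gene symbol from a list of *Atf4*, its targets in amino acid synthesis and transport, and the cytosolic aminoacyl-tRNA synthetases. They are 6 regulators of the response, 6 enzymes of amino acid and one-carbon metabolism, 4 amino acid transporters and 19 synthetase genes. All 35 had a row and passed the filter on low counts. RNA was sequenced from 3 libraries of ILC2s cultured with CD200-Fc (replicates 35, 36 and 38) and from 3 cultured with its isotype (replicates 16, 17 and 18). The reagent CD200-Fc is the ligand of the inhibitory receptor CD200R joined to the Fc portion of an antibody, and the comparison asks how ILC2 transcripts differ after CD200R engagement. Both groups came from wild-type BALB/cByJ mice, 8 weeks old by the sample labels and female by the methods, that had been given 3 intranasal doses of 0.5 µg rmIL-33. Lineage-negative CD45+ CD127+ ST2+ cells were sorted and held for 24 h at 50000 cells per mL with rmIL-2 and rmIL-7, each at 10 ng/mL, in both groups. By the study's figure legends this culture held rmIL-33 too, which is absent from its RNA-sequencing methods. No source used here ties a library to a mouse or a culture, so the p-values rest only on the spread among these libraries, which may be technical.

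ATF4 is a transcription factor whose mRNA is translated efficiently when the initiation factor eIF2 is phosphorylated, as happens when uncharged tRNA activates the kinase GCN2 or misfolded protein activates the kinase PERK. It binds composite C/EBP-ATF elements in genes for amino acid synthesis, amino acid uptake and tRNA charging. In activated lymphocytes the same genes support protein synthesis and growth, and many are transcribed at high levels in the absence of stress. Because ATF4 is controlled in large part at translation, the level of *Atf4* mRNA is not a measure of ATF4 protein.

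The 6 libraries held 20096555 to 33321709 expected counts, and each of the 3 CD200-Fc libraries was deeper than every isotype library. No library stood apart: the mean correlation of a library with the other 5 was 0.982 to 0.985. All 12 ILC2 markers were measured, with summed levels of 11178 to 11290 CPM (counts scaled to the library total and edgeR's TMM factor) in CD200-Fc libraries and 10509 to 10656 CPM in isotype libraries. The defining markers of T cells summed to 24.7 to 28.3 CPM in CD200-Fc libraries and 25.5 to 29.2 CPM in isotype libraries, most of it *Cd3g*. Myeloid markers summed to 0.0787 to 10.7 CPM in CD200-Fc libraries, with *Lyz2* at 9.78 CPM in CD200-Fc replicate 38, and to 0.257 to 2.79 CPM in isotype libraries. B cell markers were at most 0.414 CPM in CD200-Fc libraries and 0.296 CPM in isotype libraries. Mast cell and basophil markers summed to 3.71 to 7.60 CPM in CD200-Fc libraries and 2.24 to 5.52 CPM in isotype libraries. Of the epithelial markers, *Sftpc* and *Scgb1a1* were at 0 in every library, and *Epcam* had 29.8 to 35.3 CPM in CD200-Fc libraries against 24.8 to 25.9 CPM in isotype libraries. The endothelial marker *Pecam1* had 20.6 to 26.3 CPM in CD200-Fc libraries and 18.5 to 23.6 CPM in isotype libraries. The part of these markers in the results was not tested.

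Transcripts of the amino acid response and of the cytosolic tRNA synthetases had levels with CD200-Fc that lay close to those with isotype, and none passed the test. Of the 35 members, 0 were called higher and 0 lower by edgeR's quasi-likelihood test (adjusted p under 0.05), with adjustment over all 14124 tested genes. Over all tested genes, 1.48% were called higher and 0.595% lower, or 2.07% in either direction. Among tested genes with a mean log2 CPM of 6 or more, where 29 of the members lie, 5.78% were called. At an unadjusted p under 0.05 the count of members was 2 (*Tars* and *Lars*), or 5.71%, against 17.1% of all tested genes. DESeq2 also called 0 members, limma-voom called 0, and the smallest adjusted p of any member in any of 18 alternative settings was 0.0722 (*Tars*, DESeq2). DESeq2 set no adjusted p for *Atf5* and *Slc7a11*.

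The sizes of the differences were small. The median log2 fold change, CD200-Fc over isotype, was 0.0016 over the 35 members and -0.0035 over all tested genes. The median of its absolute value was 0.059 over the members and 0.14 over all tested genes. Among genes with a mean log2 CPM of 6 or more it was 0.040 for the 29 members and 0.093 for the 3670 tested genes. A p that misses the threshold does not show that the groups were equal, so the 95% interval of each fold change was read as well. It lay within 1.25-fold in both directions for 30 of 35 members (85.7%), against 33.7% of all tested genes. All 29 members with a mean log2 CPM of 6 or more had such an interval, against 78.5% of the 3670 tested genes in that range. The 29 members were the more abundant and more precisely measured of these, with a median log2 CPM of 7.94 and a median SE of 0.052, against 6.94 and 0.065 for the 3670 genes. The exceptions among the members were *Atf5*, *Trib3*, *Chac1*, *Sesn2* and *Slc7a11*, and within 1.5-fold the exceptions were *Atf5* and *Slc7a11*.

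**Figure D1:**
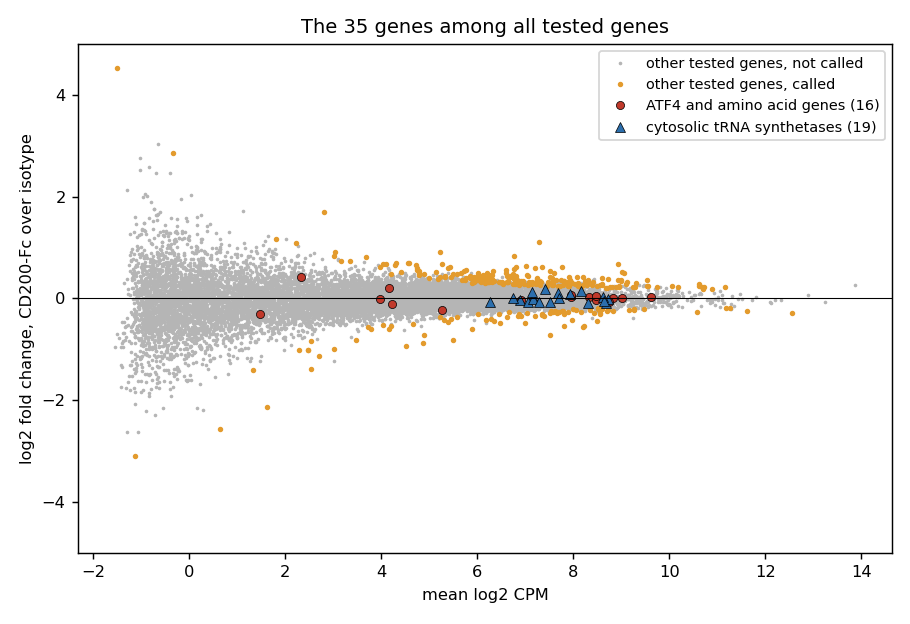
Log2 fold change, CD200-Fc over isotype, against mean log2 CPM for all 14124 tested genes, 3 libraries a group. Red circles are the 16 ATF4 and amino acid genes, blue triangles the 19 cytosolic synthetase genes, orange points other called genes and grey points other genes not called. The 35 members lie along the line at 0, and none is among the called genes.

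By rank, 1 of 35 members had every CD200-Fc library above every isotype library (*Tars*, 2.86%), where 11.6% of all tested genes did. The opposite order was seen for 4 of 35 (*Atf5*, *Hars*, *Kars* and *Sars*, 11.4%), where 11.2% of all tested genes did. The groups overlapped for the other 30 members. Among genes with a mean log2 CPM of 6 or more, 3.45% of the 29 members lay apart above and 10.3% below, against 20.4% and 16.3% of the 3670 tested genes. Per kilobase of transcript, which allows levels of different genes to be compared, *Slc3a2* had the highest level of all members in both groups, 283 ± 6.22 in CD200-Fc libraries and 278 ± 10.4 in isotype libraries (CPM per kb, SD, n = 3 each). *Atf4*, *Phgdh*, *Shmt2*, *Gars* and *Psat1* came next in CD200-Fc libraries (187, 187, 183, 176 and 175 CPM per kb), and each of these overlapped its neighbour in the order. In isotype libraries the same 5 genes held ranks 2 to 6, led by *Shmt2* at 192 CPM per kb. *Slc7a5* and *Nars* followed in both groups and overlapped each other, then *Slc1a5*, *Asns* and *Mthfd2*, and then *Vars*, *Hars* and *Sars*, whose libraries did not overlap one another. The remaining synthetases and *Psph* formed a run of 26.7 to 74.99 CPM per kb in CD200-Fc libraries and 28.2 to 74.5 CPM per kb in isotype libraries, down to *Qars*. *Ddit3*, *Chac1*, *Sesn2* and *Trib3* lay at 8.79 to 17.5 CPM per kb in CD200-Fc libraries and 9.44 to 17.5 CPM per kb in isotype libraries. *Atf5* and *Slc7a11* were the lowest in both groups, at 1.34 and 0.603 CPM per kb in CD200-Fc libraries and 1.66 and 0.452 CPM per kb in isotype libraries. Of the 34 neighbouring pairs in this order, 18 overlapped in CD200-Fc libraries and 21 in isotype libraries. Lengths are of the longest annotated transcript, which need not be the one these cells use.

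**Figure D2:**
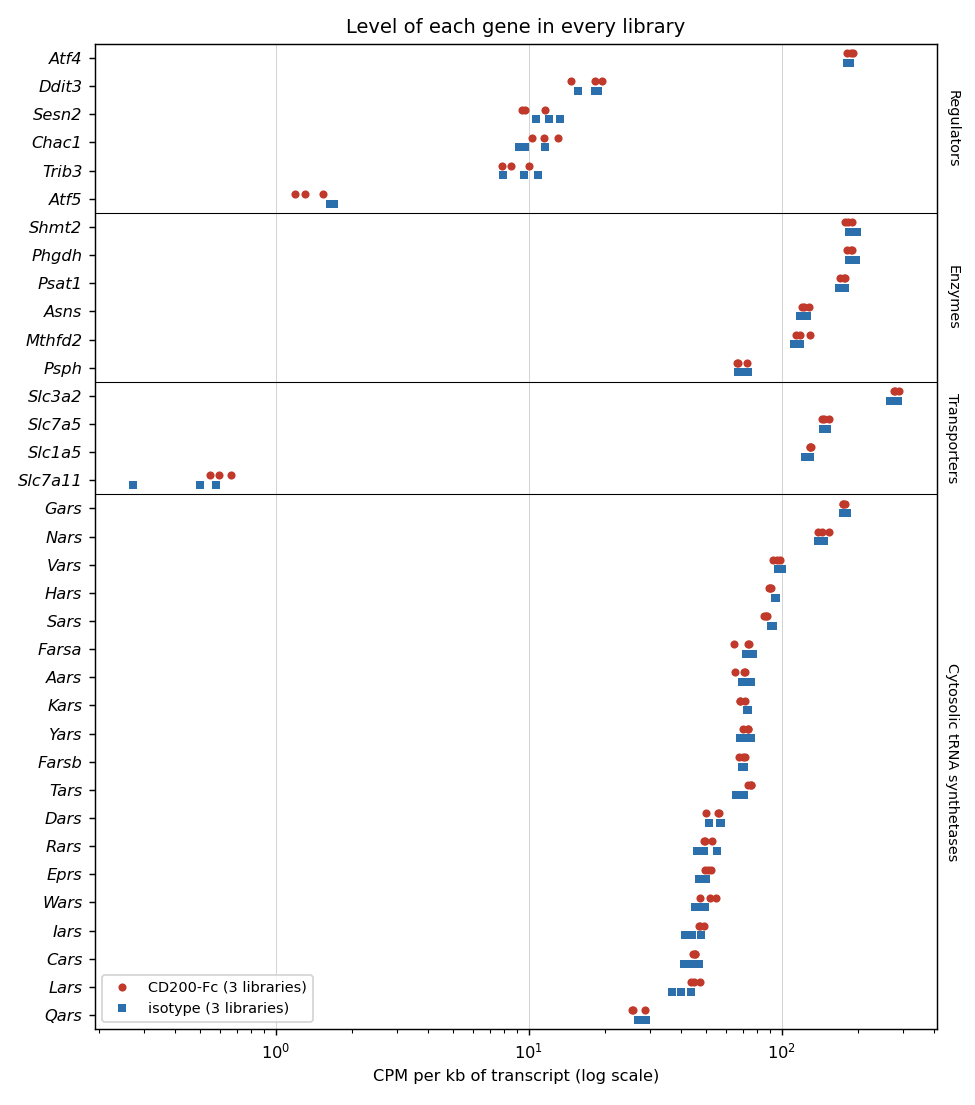
CPM per kb of transcript (log axis) of each of the 35 members in every library, red circles for the 3 CD200-Fc libraries and blue squares for the 3 isotype libraries, grouped by role and ordered by level. The groups lie on each other for most genes, from *Slc3a2* at the top of the range to *Atf5* and *Slc7a11* far below the other members.

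What the members share in sequence was looked for in RefSeq promoter windows (GRCm38.p6), 250 bases before to 50 after each gene's start. The motif was TGATGNAA, the core of the C/EBP-ATF element, read on both strands (TTNCATCA on the other). A window was given for 26 of the 35 members, and 9 of these (34.6%) held the motif, against 4.51% of 27025 genes with a window. Part of the list was chosen as targets of *Atf4*, so these shares are no independent test of the motif. The 9 were *Trib3*, *Chac1*, *Asns*, *Slc7a11*, *Aars*, *Gars*, *Iars*, *Tars* and *Yars*, that is 5 of 12 synthetases and 4 of 14 other members with a window. In *Trib3*, *Iars* and *Yars* the match lay after the RefSeq start. The other 6 had a match before it, and 5 of these are shown to give the letters of the element with the bases around it. Each run is 30 bases, 5′ to 3′ on the strand of the gene, with the motif in capitals.
Asns: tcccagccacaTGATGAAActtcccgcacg
Chac1: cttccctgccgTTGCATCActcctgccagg
Slc7a11: gcTGATGCAAacctggagaatTTGCATCAt
Tars: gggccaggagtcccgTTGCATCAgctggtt
Gars: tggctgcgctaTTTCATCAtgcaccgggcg
The *Asns* run is chr6:7693214-7693243 (minus strand), *Chac1* chr2:119351038-119351067 (plus strand), *Slc7a11* chr3:50443652-50443681 (minus strand), *Tars* chr15:11399659-11399688 (minus strand) and *Gars* chr6:55037960-55037989 (plus strand). The *Asns* run lies inside the gene model of the deposited table, which begins upstream of the RefSeq start. The *Slc7a11* run holds 2 copies of the motif in opposite orientation. The 9 members with the motif had a median log2 fold change of 0.02 (-0.10 to 0.41), and the 17 members with a window and no match had -0.03. A match is a description of the letters and not a measured binding site.

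Among the regulators, *Atf4* itself (chr15:80255184-80257541, mm10) was measured with high precision. Its levels were 324, 312 and 330.3 CPM in CD200-Fc libraries, against 317, 322 and 313 CPM in isotype libraries. The groups overlapped (log2 fold change 0.02, SE 0.048, adjusted p = 0.868), and the 95% interval of the fold change was 0.945- to 1.09-fold. *Ddit3*, which encodes the stress factor CHOP, had 16.3, 13.1 and 17.3 CPM in CD200-Fc libraries, against 13.96, 16.7 and 16.2 CPM in isotype libraries, with a log2 fold change of -0.0072. *Trib3*, a pseudokinase that feeds back on ATF4, had 17.3, 20.3 and 15.9 CPM in CD200-Fc libraries, against 21.97, 19.4 and 15.97 CPM in isotype libraries (log2 fold change -0.10). Both genes were at low levels beside most other members in all 6 libraries, with CD200-Fc and isotype values interleaved. Their mean log2 CPM of 3.97 (*Ddit3*) and 4.21 (*Trib3*) was not far below the median of all tested genes, 4.41. *Ddit3* overlaps *Mars* on the opposite strand, and the sources used here do not state whether counting used strand.

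The other regulators had wider intervals. *Atf5* (chr7:44812256-44816658), a close relative of *Atf4*, had 2.16, 2.80 and 2.36 CPM in CD200-Fc libraries, against 2.998, 2.96 and 3.08 CPM in isotype libraries (log2 fold change -0.30, SE 0.26, adjusted p = 0.620). Its 3 CD200-Fc values lay below its 3 isotype values, but on 55 to 92 counts per library, and the 95% interval of 0.549- to 1.20-fold covers no difference. *Atf5* overlaps *Il4i1* and *Nup62* on the opposite strand. *Chac1* (chr2:119351229-119354381), an enzyme that degrades glutathione and a sensitive ATF4 target, had 18.8, 16.9 and 21.4 CPM in CD200-Fc libraries, against 15.8, 18.9 and 14.9 CPM in isotype libraries (log2 fold change 0.20, SE 0.13, adjusted p = 0.496, interval 0.940- to 1.40-fold). *Sesn2* (chr4:132492032-132510501), a leucine sensor that restrains mTORC1, had 40.1, 33.6 and 32.7 CPM in CD200-Fc libraries, against 41.8, 46.03 and 37.003 CPM in isotype libraries (log2 fold change -0.23, SE 0.11, adjusted p = 0.293, interval 0.726- to 1.0003-fold). For *Chac1* and *Sesn2* the groups overlapped. Over the 6 regulators the log2 fold change was positive for 2 and negative for 4, with a median of -0.05, which became 0.03 with offsets for GC content and length.

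The 6 enzymes had overlapping values in the groups, and each had an interval within 1.25-fold. *Asns*, which makes asparagine and whose promoter holds the motif shown above, had 257, 243 and 246 CPM in CD200-Fc libraries, against 253, 245 and 237 CPM in isotype libraries (log2 fold change 0.02, interval 0.940- to 1.097-fold). The serine pathway runs through *Phgdh*, *Psat1* and *Psph*. *Phgdh*, its first step, had 359.8, 356 and 343 CPM in CD200-Fc libraries, against 360.4, 374 and 349.8 CPM in isotype libraries. *Psat1*, the transaminase that follows, had 445, 465 and 463 CPM in CD200-Fc libraries, against 453, 439 and 465 CPM in isotype libraries. *Psph*, the final phosphatase, had 126, 116 and 115 CPM in CD200-Fc libraries, against 116, 128 and 119.8 CPM in isotype libraries. The log2 fold changes of these serine pathway genes were -0.03, 0.02 and -0.03, and their values interleaved between groups.

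In mitochondria SHMT2 splits serine to glycine and a one-carbon unit, and MTHFD2 oxidizes the folate that carries it. *Shmt2* (chr10:127517123-127522444) had 434, 407 and 419 CPM in CD200-Fc libraries, against 421, 456 and 443 CPM in isotype libraries (log2 fold change -0.07, SE 0.050, adjusted p = 0.547, interval 0.887- to 1.03-fold). *Mthfd2* (chr6:83305691-83325908) had 247, 271 and 236 CPM in CD200-Fc libraries, against 246, 245 and 233 CPM in isotype libraries (log2 fold change 0.06, SE 0.059, adjusted p = 0.673, interval 0.954- to 1.137-fold). The highest *Mthfd2* value was in CD200-Fc replicate 36 and the lowest in isotype replicate 18, with the other 4 between 236 and 247 CPM. Over the 6 enzymes the median log2 fold change was -0.0057.

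The transporters split by level. *Slc3a2* encodes the heavy chain (CD98) that carries the light chains LAT1 (*Slc7a5*, large neutral amino acids) and xCT (*Slc7a11*, cystine) to the membrane. *Slc3a2* had 815, 788 and 782 CPM in CD200-Fc libraries, against 752, 809.7 and 785 CPM in isotype libraries (log2 fold change 0.02). *Slc7a5* (chr8:121881150-121907694) had 539.5, 508 and 516 CPM in CD200-Fc libraries, against 513, 518 and 531 CPM in isotype libraries (log2 fold change 0.0016, SE 0.046, adjusted p = 0.992, interval 0.935- to 1.07-fold). Both chains overlapped between the groups. Per kilobase, the level of *Slc7a5* over that of *Slc3a2* was 0.525 ± 0.00764 in CD200-Fc libraries and 0.533 ± 0.0184 in isotype libraries (SD, n = 3 each). *Slc1a5* (chr7:16781340-16798274), the glutamine carrier ASCT2, had 361, 357 and 356 CPM in CD200-Fc libraries, against 346, 356 and 343 CPM in isotype libraries (log2 fold change 0.04, SE 0.046, adjusted p = 0.724, interval 0.959- to 1.101-fold).

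*Slc7a11* (chr3:49892526-50443614) was the most weakly expressed transporter and had the largest log2 fold change of the 35 members. It had 5.08, 5.47 and 6.13 CPM in CD200-Fc libraries, against 5.35, 2.52 and 4.63 CPM in isotype libraries (log2 fold change 0.41, SE 0.26, adjusted p = 0.447), on 51 to 180 counts per library. The difference rested largely on isotype replicate 17, without which the log2 fold change was 0.16, and the other 2 isotype values lay within or just under the CD200-Fc range. The interval, 0.909- to 1.95-fold, covers both directions. Over the 4 transporters all log2 fold changes were above 0, with a median of 0.03, although *Slc7a5* and *Slc3a2* took values down to -0.023 and -0.0029 in the alternatives.

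Cytosolic synthetases each join an amino acid to its tRNA. The 19 genes together took up 4312, 4213 and 4273 CPM in CD200-Fc libraries, against 4334, 4186 and 4245 CPM in isotype libraries, a mean of 4266 ± 50.2 CPM with CD200-Fc and 4255 ± 74.3 CPM with isotype (SD, n = 3 each). The total did not differ beyond its spread. The log2 fold change was above 0 for 9 and below 0 for 10, with a median of -0.01 and a range of -0.08 to 0.18, and every interval lay within 1.25-fold.

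*Tars* (chr15:11382301-11399665), for threonine, had the smallest p of all members. It had 303, 303 and 295 CPM in CD200-Fc libraries, against 284, 272 and 263 CPM in isotype libraries, so that every CD200-Fc library was above every isotype library. The difference did not pass the adjusted threshold (log2 fold change 0.14, SE 0.050, adjusted p = 0.168), and its interval was 1.02- to 1.19-fold. *Lars*, for leucine, had 174, 179.7 and 188 CPM in CD200-Fc libraries, against 174, 146 and 159 CPM in isotype libraries (log2 fold change 0.18, SE 0.067, adjusted p = 0.187, interval 1.02- to 1.25-fold). Isotype replicate 16 was as high as CD200-Fc replicate 35, and isotype replicate 17 was the lowest of the 6, without which the log2 fold change was 0.12. *Iars*, for isoleucine, had 209.7, 209 and 218 CPM in CD200-Fc libraries, against 212, 184 and 195 CPM in isotype libraries (log2 fold change 0.11). Like *Lars*, it was lowest in isotype replicate 17, without which its log2 fold change was 0.062.

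*Wars* (tryptophan) had 156, 134 and 148 CPM in CD200-Fc libraries, against 141, 128 and 135 CPM in isotype libraries (log2 fold change 0.12). *Eprs*, a single chain that charges tRNA with glutamate and with proline, had 251, 258 and 243 CPM in CD200-Fc libraries, against 245, 231 and 235 CPM in isotype libraries (log2 fold change 0.08). In both the groups overlapped, with edgeR adjusted p-values of 0.407 and 0.459. *Cars* (cysteine) had 147, 146 and 144 CPM in CD200-Fc libraries, against 142, 132 and 152 CPM in isotype libraries. *Nars* (asparagine) had 423, 395 and 382 CPM in CD200-Fc libraries, against 382, 401 and 390.1 CPM in isotype libraries. *Yars* (tyrosine) had 213, 205 and 213 CPM in CD200-Fc libraries, against 210.0, 198 and 219 CPM in isotype libraries. These 3 genes interleaved, with log2 fold changes of 0.03, 0.03 and 0.0081.

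At the other end stood *Aars* (chr8:111033144-111057664), for alanine, with 406, 376 and 409.9 CPM in CD200-Fc libraries, against 426, 401 and 435 CPM in isotype libraries (log2 fold change -0.08, SE 0.053, adjusted p = 0.456, interval 0.873- to 1.02-fold). The CD200-Fc and isotype ranges of *Aars* overlapped. *Sars* (serine) had 313, 308 and 303 CPM in CD200-Fc libraries, against 325, 331 and 322 CPM in isotype libraries. *Hars* (histidine) had 177, 179.8 and 179 CPM in CD200-Fc libraries, against 189, 188 and 187 CPM in isotype libraries. *Kars* (lysine) had 149, 149 and 156 CPM in CD200-Fc libraries, against 159.6, 159.8 and 160.2 CPM in isotype libraries. In these 3 genes every CD200-Fc library lay below every isotype library, with log2 fold changes of -0.08, -0.08 and -0.08 and edgeR adjusted p-values of 0.409, 0.490 and 0.508. *Hars* overlaps *Hars2*, its mitochondrial counterpart, on the opposite strand.

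*Gars*, for glycine, was the synthetase with the highest level per kilobase, 176 ± 1.72 in CD200-Fc libraries and 178 ± 3.60 in isotype libraries (CPM per kb, SD, n = 3 each), and its CPM were 416, 417 and 423 in CD200-Fc libraries, against 432, 427 and 415 in isotype libraries. *Vars* (valine) had 396, 383 and 406 CPM in CD200-Fc libraries, against 414, 401 and 408 CPM in isotype libraries. The CPM of both interleaved. *Qars* (glutamine) had the lowest level per kilobase of the synthetases, with 80.4, 71.4 and 72.2 CPM in CD200-Fc libraries, against 79.995, 75.4 and 81.4 CPM in isotype libraries. *Dars* (aspartate) had 122, 123 and 109 CPM in CD200-Fc libraries, against 124, 123 and 112 CPM in isotype libraries. *Rars* (arginine) had 105, 112 and 104 CPM in CD200-Fc libraries, against 117, 104 and 97.8 CPM in isotype libraries. Log2 fold changes of the last 5 genes were -0.02, -0.05, -0.08, -0.02 and 0.0054.

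Phenylalanine is charged by an enzyme of alpha chains (*Farsa*) and beta chains (*Farsb*). *Farsa* had 134, 119 and 136 CPM in CD200-Fc libraries, against 132, 140.3 and 136 CPM in isotype libraries (log2 fold change -0.07). *Farsb* had 137, 145 and 143 CPM in CD200-Fc libraries, against 144, 143 and 142 CPM in isotype libraries (log2 fold change -0.01). Per kilobase the ratio of the alpha to the beta transcript was 1.02 ± 0.0946 in CD200-Fc libraries and 1.06 ± 0.0389 in isotype libraries (SD, n = 3 each). The transcripts of both chains thus had like levels in both groups, given the annotated lengths used. The 7 members whose enzymes belong to the multisynthetase complex (*Dars*, *Eprs*, *Iars*, *Kars*, *Lars*, *Qars* and *Rars*) summed to 1090.0, 1102 and 1092 CPM in CD200-Fc libraries, against 1113, 1023 and 1040 CPM in isotype libraries, and both groups overlapped. The other 12 summed to 3171 ± 56.4 CPM in CD200-Fc libraries and 3196 ± 30.2 CPM in isotype libraries (SD, n = 3 each), and these sums overlapped too.

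**Figure D3:**
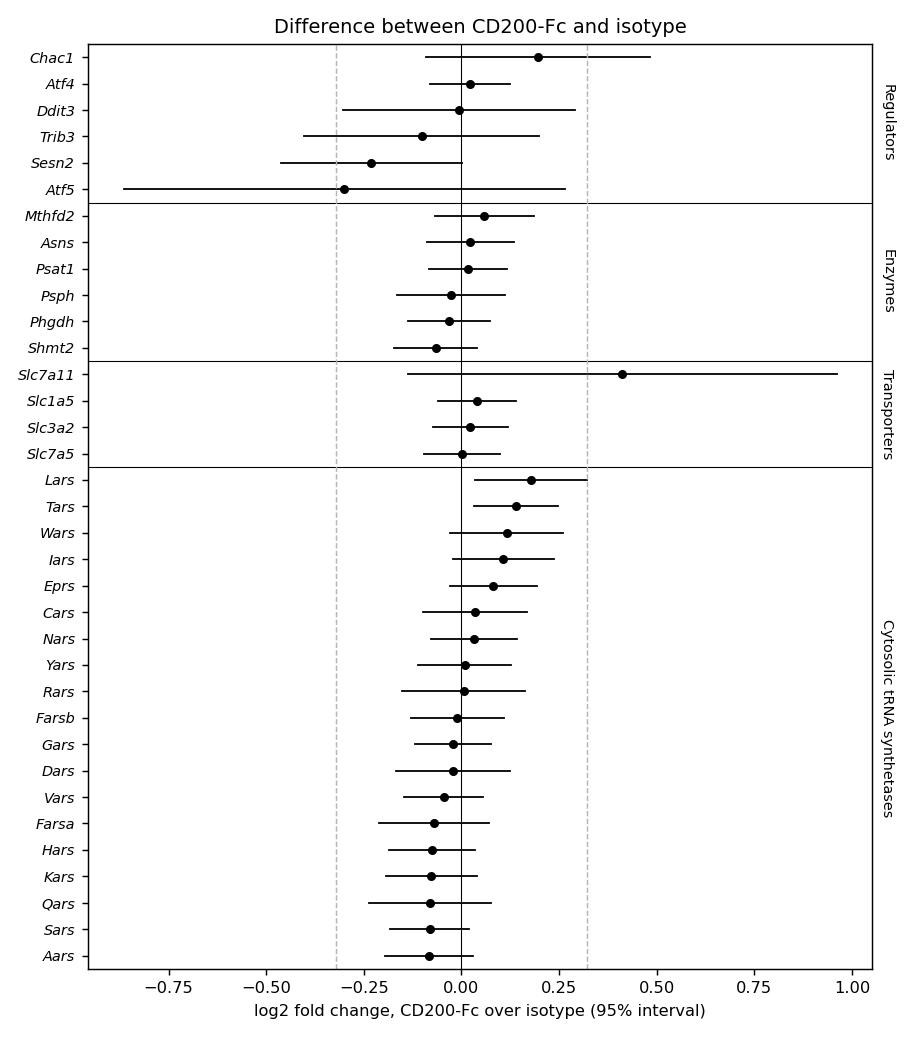
Log2 fold change of each of the 35 members, CD200-Fc over isotype, with its 95% interval from the edgeR fit of 3 against 3 libraries, grouped by role. The dashed lines mark 1.25-fold in each direction. The intervals of *Tars* and *Lars* lie above 0 before adjustment for multiple testing, and those of *Slc7a11* and *Atf5* are the widest.

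The members varied little between libraries of the same group. Of the 35, 13 overlap another gene model of the table, 9 of them only on the opposite strand. The median coefficient of variation was 3.15% over the 35 members in CD200-Fc libraries and 3.72% in isotype libraries, against 9.14% (CD200-Fc) and 9.87% (isotype) over all tested genes. Over tested genes with a mean log2 CPM of 6 or more it was 4.23% in CD200-Fc libraries and 5.08% in isotype libraries. All 35 together summed to 8208 ± 101 CPM in CD200-Fc libraries and 8184 ± 27.8 CPM in isotype libraries (SD, n = 3 each). No library was extreme throughout: each held the highest of the 6 values for 4 to 7 members, and the lowest for 1 (isotype replicate 16) to 9 (CD200-Fc replicate 36). The 16 ATF4 and amino acid genes contributed 3942 ± 57.7 CPM in CD200-Fc libraries and 3929 ± 62.0 CPM in isotype libraries. In bulk RNA, fewer cells of a type and less RNA per cell cannot be told apart. Across the 35 members the log2 fold change had a Pearson correlation of -0.58 with GC content and 0.40 with log2 transcript length (Spearman -0.49 and 0.25), against -0.075 and 0.13 across the 13948 tested genes with both values (Spearman -0.15 and 0.22). These are descriptions across genes of the same 6 libraries. With offsets for GC content and length the log2 fold change of *Tars* was 0.087 and that of *Lars* 0.13.

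The pathway around the members was covered by 4 further lists of 64 genes, of which 62 had a row and 59 were tested. The list of eIF2 kinases, their partners and eIF2 phosphatases had 1 of 10 called higher and 0 lower, with a median log2 fold change of 0.10. Other ATF4 or amino acid response genes had 0 of 27 called (median -0.0063). Mitochondrial synthetases had 0 of 17 called (median 0.02), and the scaffold proteins of the multisynthetase complex with the remaining cytosolic synthetases had 0 of 5 called (median -0.10). The median over all tested genes was -0.0035. The 1 called gene of 59 stands beside the 2.07% called over the whole table. At an unadjusted p under 0.05 in the edgeR test the count was 10 of 59 (16.9%), 5 higher and 5 lower. Over all tested genes the share was 17.1%. Among the other ATF4 or amino acid response genes it was 7 of 27 (25.9%), 3 higher and 4 lower.

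The called gene was *Eif2ak3* (chr6:70844515-70905245), which encodes PERK, the kinase of the endoplasmic reticulum that phosphorylates eIF2. It had 40.03, 40.6 and 43.3 CPM in CD200-Fc libraries, against 32.97, 33.1 and 28.7 CPM in isotype libraries, so that the groups did not overlap. *Eif2ak3* rose with CD200-Fc by a log2 fold change of 0.39 (SE 0.093, edgeR adjusted p = 0.0484, interval 1.138- to 1.501-fold). The call stood at the threshold and was lost without any 1 of the 6 libraries, with adjusted p-values of 0.0637 to 0.154, and it held in 6 of the 18 alternatives. *Eif2ak3* overlaps the predicted genes *Gm23346* and *Gm43292*. *Aimp2* (chr5:143902704-143909847), a scaffold protein of the multisynthetase complex, had 67.9, 64.9 and 75.5 CPM in CD200-Fc libraries, against 81.8, 92.5 and 85.4 CPM in isotype libraries. Its CD200-Fc values were all below its isotype values, and it did not pass (log2 fold change -0.32, SE 0.078, adjusted p = 0.0514), although it passed in 9 of the 18 alternatives. *Aimp2* overlaps *Eif2ak1* on the opposite strand, and *Eif2ak1* had a log2 fold change of -0.07.

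Other kinases of eIF2 were not called. *Eif2ak4*, which encodes GCN2, the sensor of uncharged tRNA, had 23.3, 16.97 and 19.2 CPM in CD200-Fc libraries, against 18.5, 12.1 and 17.01 CPM in isotype libraries (log2 fold change 0.32, SE 0.16, adjusted p = 0.344). *Eif2s1*, the eIF2 subunit that these kinases phosphorylate, had a log2 fold change of 0.00090 (interval 0.926- to 1.08-fold). *Atf3*, a factor induced by ATF4, had the smallest p of the second list, with 1.38, 1.43 and 1.41 CPM in CD200-Fc libraries, against 2.48, 3.996 and 1.89 CPM in isotype libraries (log2 fold change -0.99, SE 0.34, adjusted p = 0.153). Its 3 CD200-Fc values lay below its isotype values, on 34 to 81 counts per library. *Iars2* had the smallest p of the mitochondrial synthetases, with 66.1, 65.2 and 61.3 CPM in CD200-Fc libraries, against 55.97, 59.99 and 57.1 CPM in isotype libraries (log2 fold change 0.15, SE 0.073, adjusted p = 0.301).

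**Figure D4:**
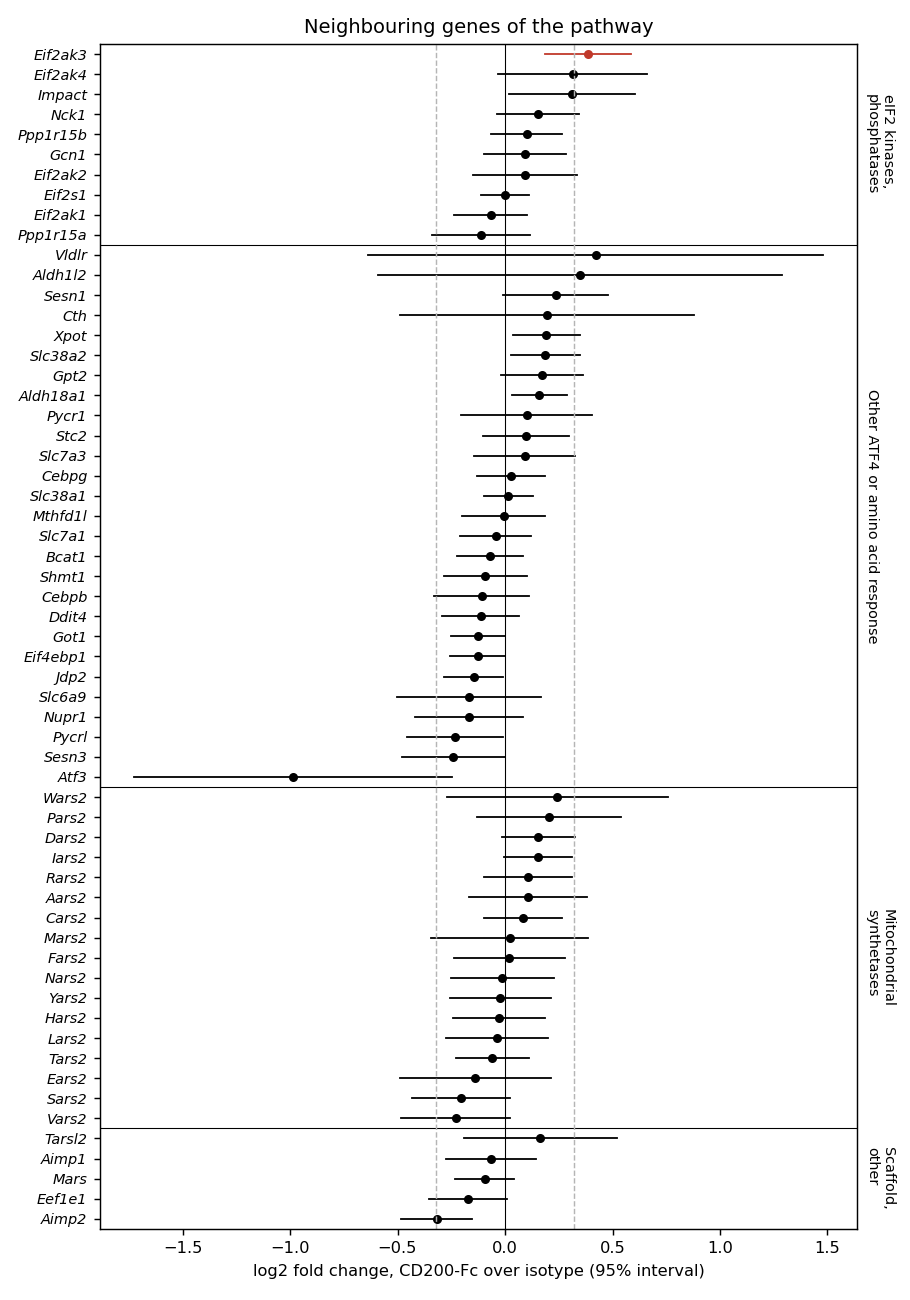
Log2 fold change of the 59 tested genes of the 4 surrounding lists, CD200-Fc over isotype, with 95% intervals from the edgeR fit of 3 against 3 libraries. The dashed lines mark 1.25-fold. The red point is *Eif2ak3*, the 1 called gene, and *Atf3* lies lowest with a wide interval.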

How the data were processed

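The authors demultiplexed reads with bcl2fastq 2.17.1.14, aligned them with STAR 2.5.3a to mm10 and deposited expected counts of 22554 genes, without normalization, estimated in Partek by expectation maximization. For the annotation, no release is named in the sources used here. The deposited normalized signal of 17194 genes equals the expected count plus 1, times 1 factor per sample that aligns upper quartiles. This form was read from the values.

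Expected counts were rounded. The 14124 genes kept by filterByExpr in edgeR 4.0.16 (R 4.3.3) were tested, after TMM scaling, by the quasi-likelihood F test over all 6 libraries, without covariates. The common biological coefficient of variation was 10.8%. The threshold for a call was 0.05 on the Benjamini-Hochberg adjusted p. Intervals (95%) used the moderated degrees of freedom. Lengths and GC content are of the longest GENCODE transcript, protein-coding ones first. Gene ends are printed 1 base below the deposited stop, which lies past the last base.

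Members and lists were chosen with earlier results of these data known. All members are given. Genes of the surrounding lists were named if called or of smallest p in their list. *Eif2ak1*, *Eif2ak4* and *Eif2s1* were named after their values were seen. Alternatives were other scalings (upper quartile, total counts), DESeq2 1.42.0, limma 3.58.1 (voom, and trend on the normalized signal with pseudocounts of 1 and 0.1), robust dispersions, other filters, unrounded counts, GC and length offsets (loess, span 0.3) and leaving out each library. Thinning to the smallest library was added after seeing the data. The fit was tested on simulated data. The sequence of 1 promoter is not reported here.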

Additional observations from a re-analysis of the deposited data

How the results depend on the processing

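The number of members called was 0 in the edgeR fit and in all 18 alternatives, and 0 in each role. The sign of the log2 fold change was the same in all 18 for 16 members and changed in at least 1 for 19, the largest of which was *Trib3*, at -0.10 in the edgeR fit. The median log2 fold change of the transporters (0.03) was 0.0081 with upper quartile scaling, 0.0072 with limma-trend at either pseudocount, 0.060 with GC and length offsets, and 0.017 to 0.055 when 1 library was left out, the highest value without isotype replicate 17. The count of called genes in the surrounding lists (1) was 2 with DESeq2, limma-voom, robust dispersions and the filter of at least 10 counts in every sample, where *Aimp2* passed with *Eif2ak3*. It was 0 with GC and length offsets and 0 whichever library was left out. In 5 alternatives with a count of 1 the called gene was *Aimp2* in place of *Eif2ak3*, and in 2 it was *Eif2ak3*. Over all 18 the adjusted p was 0.00447 to 0.193 for *Aimp2* and 0.00419 to 0.154 for *Eif2ak3*. With GC and length offsets the medians of the regulators, enzymes and synthetases turned positive (0.026, 0.032 and 0.0062). The enzyme and synthetase medians were also positive without a filter (0.0060 and 0.0012) and without CD200-Fc replicate 38 (0.0047 and 0.0021). Leaving out isotype replicate 17 gave 0.0060 for enzymes, and leaving out isotype replicate 16 gave 0.0074 for synthetases. The median over all 35 members (0.0016) was -0.021 with upper quartile scaling, where 11 members were above 0 against 18 in the edgeR fit. The cause of these changes was not tested. No paired analysis was possible because the groups share no replicate numbers.

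All CD200-Fc libraries were deeper than all isotype libraries, and after thinning to the smallest library 0 members were called. At 51 to 180 counts per library, *Slc7a11* and *Atf5* had intervals that reached past 1.5-fold. For members with a mean log2 CPM of 6 or more, differences of more than 1.25-fold lay outside every interval. Transcript levels do not measure ATF4 protein, charging of tRNA or amino acid uptake.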
